A study of Mus musculus with 6 samples.

Results

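The genes described here are 37 genes of the endoplasmic reticulum (ER): chaperones, disulfide and prolyl isomerases, the ER-associated degradation machinery, the translocation machinery and the stress sensors. They were taken by name from a list of symbols, which was drawn up with earlier results of these data known. All 37 were measured, among 18193 genes with a probe set of their own on the array. Islets of Langerhans were isolated from male CD1 mice, an outbred strain, at 8 weeks of age and rested overnight in standard medium. They then received either vehicle (0.1% ethanol, 3 arrays) or 200 uM CMPF (3 arrays) for 24 hours. CMPF is a circulating metabolite of furan fatty acids. No genetic change is named in either group, and whole islets were used, so each array reads a mixture of cell types. Nothing in the labels ties a numbered array to its own mouse or islet preparation, so the p-values below rest on a spread between arrays that may be only technical.

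Beta cells make very large amounts of proinsulin, which enters the ER, folds around its disulfide bonds and leaves for the secretory granules. Chaperones such as BiP hold the unfolded chain, disulfide isomerases shuffle its cysteines, and chains that fail to fold are sent back to the cytosol for degradation by the proteasome. When unfolded protein accumulates, the sensors IRE1, ATF6 and PERK start the unfolded protein response, and spliced XBP1 and cleaved ATF6 then switch on the genes of folding and degradation.

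ATF6 and XBP1 act on many of these genes through the ER stress response element, which was defined on promoters of several of them, Hspa5, Hsp90b1 and Calr among these. A promoter window of 250 bases before and 50 after the annotated start was found for 30 of the 37 genes (RefSeq, GRCm38.p6). The element was searched on both strands as CCAAT and CCACG separated by 9 bases. It was present in the windows of 9 of those 30 genes (30%), against 37 of 27025 genes (0.137%) with a window in the table. By window, this was 9 of 33 (27.3%) against 39 of 32851 (0.119%). The 9 genes were 6 chaperones or co-chaperones, 1 disulfide isomerase (Pdia6) and 2 degradation genes (Syvn1 and Derl3), with Hsp90b1 holding 2 matches. The matches are shown with 12 bases on each side, because they are what these genes share in sequence. Each is written 5′ to 3′ on the strand of the gene, with the element's fixed bases in capitals. On the opposite strand the element reads CGTGG and ATTGG.
Hspa5, chr2:34772013-34772055, plus strand: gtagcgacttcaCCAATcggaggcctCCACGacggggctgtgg
Hsp90b1, chr10:86705626-86705668, minus strand: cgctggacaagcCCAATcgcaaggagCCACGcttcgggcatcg
Hsp90b1, chr10:86705521-86705563, minus strand: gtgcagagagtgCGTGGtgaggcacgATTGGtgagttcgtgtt
Calr, chr8:84847063-84847105, minus strand: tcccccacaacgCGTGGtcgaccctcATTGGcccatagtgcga
Canx, chr11:50325788-50325830, minus strand: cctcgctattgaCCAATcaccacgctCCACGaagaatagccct
Dnajc3, chr14:118937815-118937857, plus strand: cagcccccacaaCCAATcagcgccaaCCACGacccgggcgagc
Creld2, chr15:88819508-88819550, plus strand: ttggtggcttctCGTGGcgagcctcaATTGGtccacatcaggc
Pdia6, chr12:17266479-17266521, plus strand: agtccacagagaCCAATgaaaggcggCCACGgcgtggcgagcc
Syvn1, chr19:6046520-6046562, plus strand: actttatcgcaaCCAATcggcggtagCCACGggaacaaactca
Derl3, chr10:75893230-75893272, plus strand: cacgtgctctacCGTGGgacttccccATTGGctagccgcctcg

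Counted from the start, the first base of the match lay at position -65 in Hspa5, -44 in Syvn1 and -162 in Calr, and at -212 and -107 in Hsp90b1. The whole 250 bases upstream of Hspa5 show how close the element sits to the start.
Hspa5, chr2:34771840-34772089, plus strand: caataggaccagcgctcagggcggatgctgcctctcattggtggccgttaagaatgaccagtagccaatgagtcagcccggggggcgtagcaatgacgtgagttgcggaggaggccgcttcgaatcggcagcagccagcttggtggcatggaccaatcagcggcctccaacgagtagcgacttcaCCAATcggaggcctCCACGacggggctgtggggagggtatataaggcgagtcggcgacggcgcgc

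The related element II, ATTGG and CCACG separated by 1 base, was found in 2 of the 30 genes (Herpud1 and Dnajb11), against 12 of 27025. In Herpud1, which recruits the degradation machinery, it lay at position -52.
Herpud1, chr8:94386365-94386399, plus strand: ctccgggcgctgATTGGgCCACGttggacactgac
The XBP1 site TGACGTGG was found in 1 of the 30 genes, Txndc5, against 193 of 27025 (0.714%). A match is a description of these letters only, and no match says only that they are not in this window. Atf6, Derl1, Hyou1, Manf, Sec61a1, Spcs3 and Ssr2 had no entry in the promoter table.

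The first question was whether these genes differ with CMPF. Of the 37 genes, 35 had a lower mean with CMPF than with vehicle, where 49.3% of all 18193 genes did. The differences were small, from -0.24 log2 units for Hsp90b1 to 0.0056 for Os9, with a median of -0.076 beside 0.0018 over all genes. The arrays of the 2 groups carry the numbers 1 to 3, and arrays of the same number deviated together, so the CMPF and vehicle array of 1 number are called a pair below. Of the 37 genes 20 were lower in all 3 pairs, beside 11.1% of all genes, and 0 were higher in all 3, beside 11.8%. The median over the 37 genes was -0.053 in pair 1, -0.045 in pair 2 and -0.11 in pair 3. A difference of at least 0.1 log2 units downward was seen for 12 of the 37 genes, beside 15% of all genes, and one of that size upward for 0, beside 18.1%.

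No gene passed the test on its own. Limma, which fits a linear model to every gene and moderates the variances, called 0 of the 37 genes and 0 of all 18193 (0%) at an adjusted p of 0.05, and the adjusted p was 0.99995 for each of the 37. At an unadjusted p under 0.05, 0 of the 37 were lower, beside 0.396% of all genes, and 0 higher, beside 0.731%. With the replicate number as a block 0 of the 37 and 0 of all genes (0%) passed, with a smallest adjusted p of 0.979. The unadjusted p then lay under 0.05 for 1 of the 37, Hsp90b1 (lower), beside 1.28% of all genes lower and 2.52% higher. The groups did not overlap for 3 of the 37 genes, Pdia4, Syvn1 and Derl1, all lower with CMPF, beside 2.11% of all genes, and for 0 in the other direction, beside 2.41%. Without the block, the 95% interval of the difference lay within 0.5 log2 units of 0 for 35 of the 37 genes. The exceptions were Hsp90b1 and Hyou1, and the intervals reached from -0.56 to 0.33 over all 37. With the block they reached from -0.48 to 0.21, all within 0.5 log2 units of 0. The SEs and intervals given below are those of the fit without the block.

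**Figure D1:**
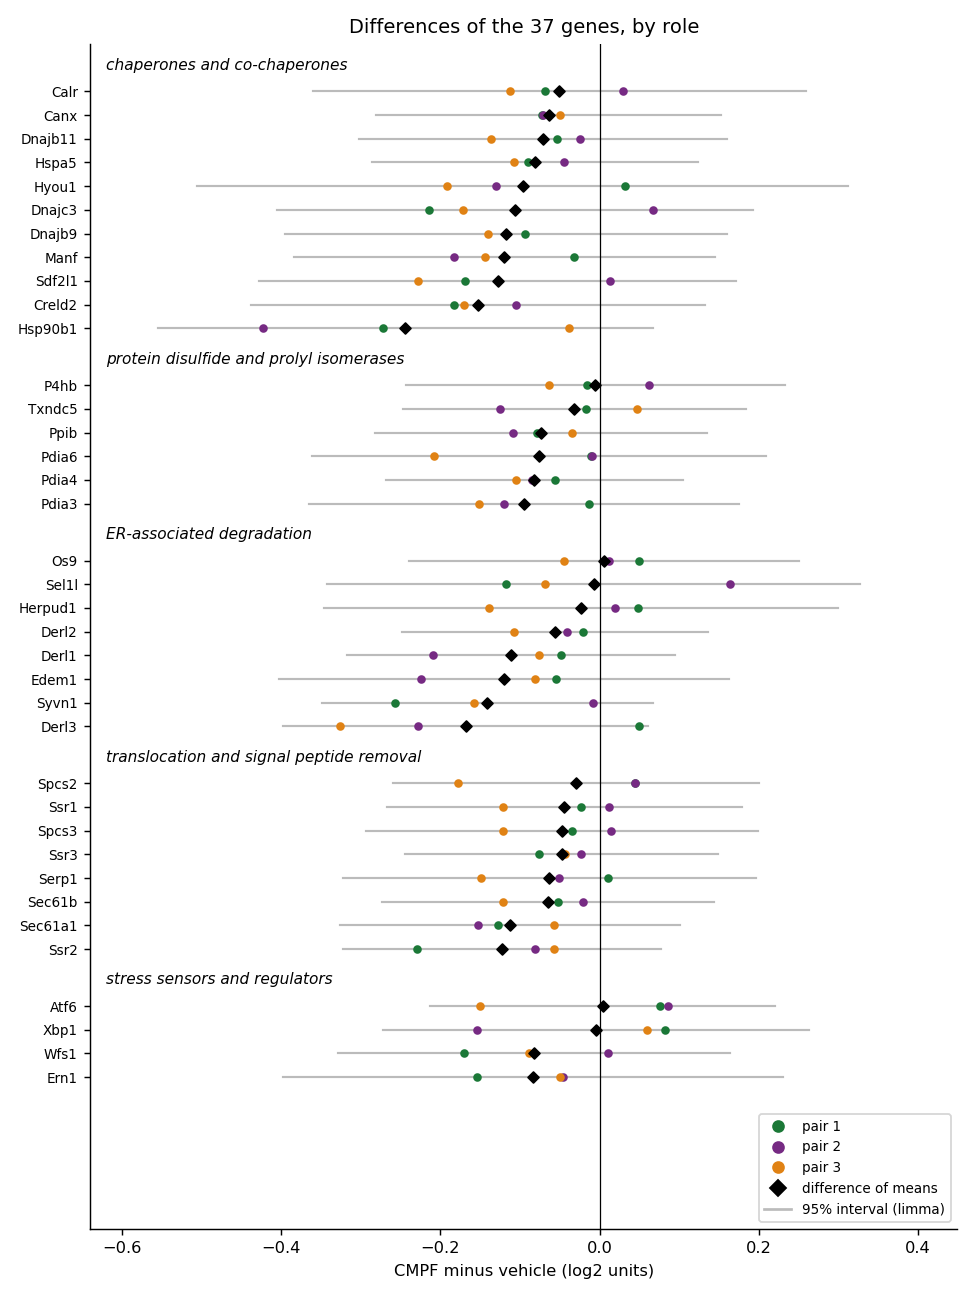
Differences of the 37 ER genes, CMPF minus vehicle in log2 units (x axis), by role. Coloured points are the 3 pairs of arrays, diamonds the differences of group means and grey lines limma's 95% intervals without the replicate block. Of 37 diamonds 35 lie below 0, and each interval drawn includes 0. With the block, not drawn, that of Hsp90b1 runs from -0.48 to -0.0073.

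Bright genes as a whole lay lower with CMPF on these arrays, mainly in pairs 1 and 2. The median of the genes above the 90th percentile of level was -0.054, -0.031 and -0.002 in pairs 1, 2 and 3. That of the 37 ER genes was -0.053, -0.045 and -0.11. Of the 1820 genes above the 90th percentile of level, 68.7% had a negative difference, 22.1% were lower in all 3 pairs and 7.03% higher, and their median was -0.033. Of the 37 ER genes 32 lay above that level, and of these 32 were negative and 19 were lower in all 3 pairs, with a median of -0.075. Among genes above the median level, which held all 37, 57.7% were negative and 14.7% were lower in all 3 pairs. The part of brightness in the difference of the 37 genes was not tested.

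**Figure D2:**
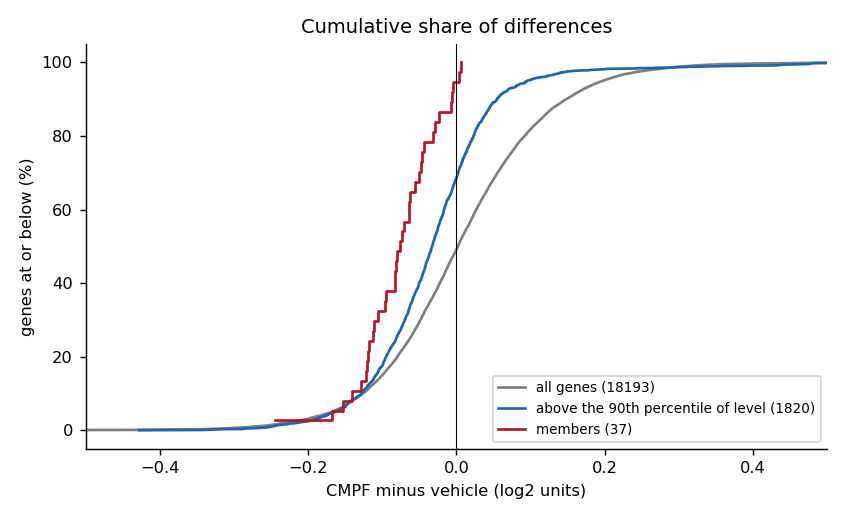
Cumulative share of genes (y axis, %) at or below a given difference (x axis, CMPF minus vehicle, log2 units). The curve of the 37 ER genes (members) lies to the left of the 1820 genes above the 90th percentile of level from about -0.1 upward; 68.7% of these are negative, against 49.3% of all 18193 genes.

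The 11 chaperones and co-chaperones had a median difference of -0.11, and all 11 had a negative difference, 7 of them in all 3 pairs. Their median was -0.049 without vehicle 1, -0.050 without CMPF 2, -0.16 without CMPF 1 and -0.17 without vehicle 2. Hsp90b1 encodes GRP94, the HSP90 of the ER lumen. It read 12.66, 12.67 and 12.76 log2 units with vehicle and 12.39, 12.25 and 12.73 with CMPF. CMPF 1 and 2 lay below every vehicle array and CMPF 3 among them, so the groups overlapped. The difference was -0.24 (SE 0.133), a 1.18-fold lower signal, and -0.27, -0.42 and -0.038 by pair. Hspa5 encodes BiP, the HSP70 of the ER and the regulator that holds the sensors inactive. It read 13.09, 12.95 and 13.10 with vehicle and 13.00, 12.90 and 12.99 with CMPF, a difference of -0.081 (SE 0.087). Each CMPF array was below its vehicle partner, but vehicle 2 was lower than CMPF 1 and CMPF 3.

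Creld2, a stress-induced ER protein with disulfide isomerase activity, read 11.34, 11.11 and 11.45 with vehicle and 11.16, 11.00 and 11.28 with CMPF. Its difference was -0.15 (SE 0.122), and its pairs were close to each other at -0.18, -0.11 and -0.17, although the groups overlapped through vehicle 2. Manf, a secreted ER-resident protein that supports beta cell survival, read 12.59, 12.40 and 12.51 with vehicle and 12.56, 12.22 and 12.36 with CMPF, a difference of -0.12 (SE 0.113) with every pair lower. The BiP co-chaperones were close to these values. Sdf2l1 differed by -0.13, Dnajb9 (ERdj4) by -0.12, Dnajc3 (p58IPK) by -0.11 and Dnajb11 (ERdj3) by -0.071. Dnajc3 and Sdf2l1 were higher in pair 2, by 0.068 and 0.013. Hyou1, the nucleotide exchange factor of BiP, differed by -0.097 (SE 0.174), with 0.032 in pair 1. On the brightest probe sets the lectin chaperones, which hold glycoproteins, had the smallest differences of the role, -0.064 for Canx and -0.050 for Calr. Over 3 probe sets each, Canx ran from -0.19 to -0.043 and Calr from -0.054 to -0.034.

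**Figure D3:**
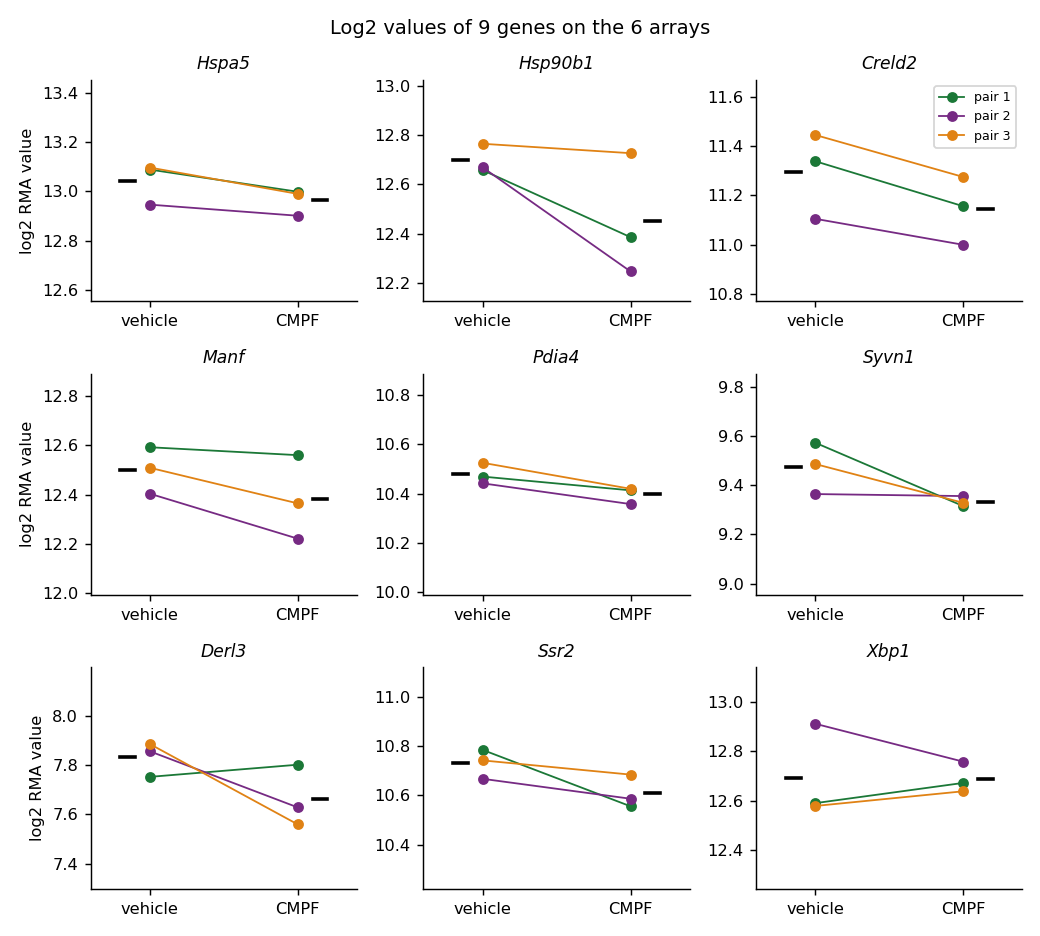
Log2 RMA values (y axis) of 9 ER genes on the 3 vehicle and 3 CMPF arrays (x axis); coloured lines join the arrays of 1 number and black bars are group means. Every panel spans 0.9 log2 units; Creld2, Hspa5, Hsp90b1, Manf, Pdia4, Syvn1 and Ssr2 are lower in all 3 pairs, Derl3 in pairs 2 and 3, and Xbp1 in pair 2 only.

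The 6 isomerases had a median difference of -0.075, and 6 of 6 were negative, 4 in all 3 pairs. Without vehicle 1, CMPF 2 or CMPF 3 the median was -0.029, -0.023 and -0.047. Pdia4 (ERp72) read 10.47, 10.44 and 10.52 with vehicle and 10.41, 10.36 and 10.42 with CMPF. Every CMPF array was below every vehicle array, but by little, and the difference was -0.082 (SE 0.080). Pdia3 (ERp57), which works with calnexin and calreticulin on glycoproteins, read 12.96, 12.74 and 12.86 with vehicle and 12.94, 12.62 and 12.71 with CMPF. The groups overlapped, with a difference of -0.095 (SE 0.115). Ppib, the prolyl isomerase cyclophilin B, read 11.55, 11.67 and 11.49 with vehicle and 11.47, 11.56 and 11.46 with CMPF, a difference of -0.074 (SE 0.089) with every pair lower and overlap through CMPF 2. Pdia6, which also modulates the sensor IRE1, differed by -0.076. P4hb, protein disulfide isomerase itself, differed by -0.0054 (SE 0.101), and Txndc5 by -0.032. P4hb was higher in pair 2 (0.062) and Txndc5 in pair 3 (0.048).

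The 8 degradation genes had a median of -0.084, with 7 negative and 1 positive, and 4 lower in all 3 pairs. The median was -0.048 without CMPF 2 and -0.13 without either vehicle 2 or CMPF 1. Derl3, a derlin of the export channel with high expression in secretory tissues, read 7.75, 7.86 and 7.89 with vehicle and 7.80, 7.63 and 7.56 with CMPF. CMPF 2 and 3 lay below every vehicle array and CMPF 1 did not, and the difference was -0.17 (SE 0.098). Syvn1 encodes HRD1, the ubiquitin ligase at the centre of the export complex. It read 9.57, 9.36 and 9.49 with vehicle and 9.31, 9.36 and 9.33 with CMPF. The groups did not overlap, but CMPF 2 and vehicle 2 were only 0.0082 apart, so that the difference of -0.14 (SE 0.089) came from pairs 1 and 3.

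Derl1, another derlin, read 11.80, 11.76 and 11.77 with vehicle and 11.75, 11.55 and 11.70 with CMPF, a difference of -0.11 (SE 0.088). The groups were separate for it, with vehicle arrays tightly together and CMPF 2 farthest below. Edem1, a lectin that draws misfolded glycoproteins into degradation, differed by -0.12, and Derl2 by -0.056, both lower in all 3 pairs. Sel1l, the adaptor of HRD1, differed by -0.0072 (SE 0.143) with pairs of -0.12, 0.16 and -0.069. Os9, a lectin that hands substrates to it, differed by 0.0056 (SE 0.105), and Herpud1 by -0.023 (SE 0.138). The differences between these genes were not tested.

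The 8 genes of translocation and signal peptide removal had a median of -0.055, all 8 negative and 4 of them in all 3 pairs. It was -0.030 without vehicle 3, -0.022 without CMPF 2, -0.096 without CMPF 1 and -0.11 without vehicle 2. Ssr2, a subunit of the translocon-associated TRAP complex, read 10.78, 10.67 and 10.74 with vehicle and 10.56, 10.59 and 10.68 with CMPF. The groups touched only through CMPF 3 and vehicle 2, and the difference was -0.12 (SE 0.085). Sec61a1, the pore of the translocon, read 12.20, 12.09 and 12.20 with vehicle and 12.07, 11.94 and 12.14 with CMPF, a difference of -0.11 (SE 0.091) with every pair lower. Sec61b, its small subunit, read 12.70, 12.56 and 12.74 with vehicle and 12.65, 12.54 and 12.62 with CMPF, a difference of -0.065 (SE 0.089). Within the TRAP complex, Ssr3 and Ssr1 differed less than Ssr2 on their brightest probe sets, by -0.048 and -0.044. Over all their probe sets Ssr3 reached -0.13 and Ssr1 -0.11, so the order of Ssr3 and Ssr2 depended on the probe set. The signal peptidase subunits Spcs3 and Spcs2 differed by -0.047 and -0.029 and were both higher in pair 2. Serp1, which steadies nascent chains at the translocon, differed by -0.063.

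The 4 sensors and regulators had a median of -0.043, with 3 negative and 1 positive and 1 lower in all 3 pairs. It was -0.016 without vehicle 1, -0.020 without CMPF 2, -0.025 without CMPF 3, -0.074 without CMPF 1 and -0.094 without vehicle 2. The order of the 5 roles by median thus depended on single arrays, and differences between roles were not tested. Ern1, which encodes IRE1, read 10.29, 9.96 and 10.30 with vehicle and 10.14, 9.92 and 10.25 with CMPF. Number 2 was low in both groups, and the difference was -0.083 (SE 0.134), lower in every pair. Xbp1, whose message IRE1 splices, read 12.59, 12.91 and 12.58 with vehicle and 12.67, 12.76 and 12.64 with CMPF. It went the opposite way to the chaperones on the arrays of number 2, where it was highest, and its difference was -0.0041 (SE 0.114). The array's 3' probe sets were not shown here to tell spliced from unspliced Xbp1.

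Atf6, the sensor cleaved in the Golgi, read 8.78, 8.68 and 8.79 with vehicle and 8.85, 8.76 and 8.64 with CMPF. It was higher in pairs 1 and 2 and lower in pair 3, and differed by 0.0040 (SE 0.092). Wfs1, an ER membrane protein whose loss causes diabetes and beta cell failure, read 9.63, 9.32 and 9.46 with vehicle and 9.46, 9.33 and 9.37 with CMPF. Its difference was -0.083 (SE 0.105), with vehicle 1 above all other arrays and pair 2 at 0.010. The 95% intervals ran from -0.27 to 0.26 for Xbp1 and from -0.21 to 0.22 for Atf6.

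Genes with the ER stress response element in the window and those without it were set side by side. All 9 genes with it were negative, 6 in all 3 pairs, with a median of -0.11 and a range from -0.24 to -0.050. Of the 21 with a window and no match, 20 were negative and 10 were lower in all 3 pairs, with a median of -0.063 and a range from -0.13 to 0.0056. The 7 genes with no entry in the promoter table had a median of -0.11. The ranges overlapped, and the difference between the classes was not tested. Hsp90b1, with 2 matches, had the largest difference, but Calr, also with a match, had one of the smaller ones.

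**Figure D4:**
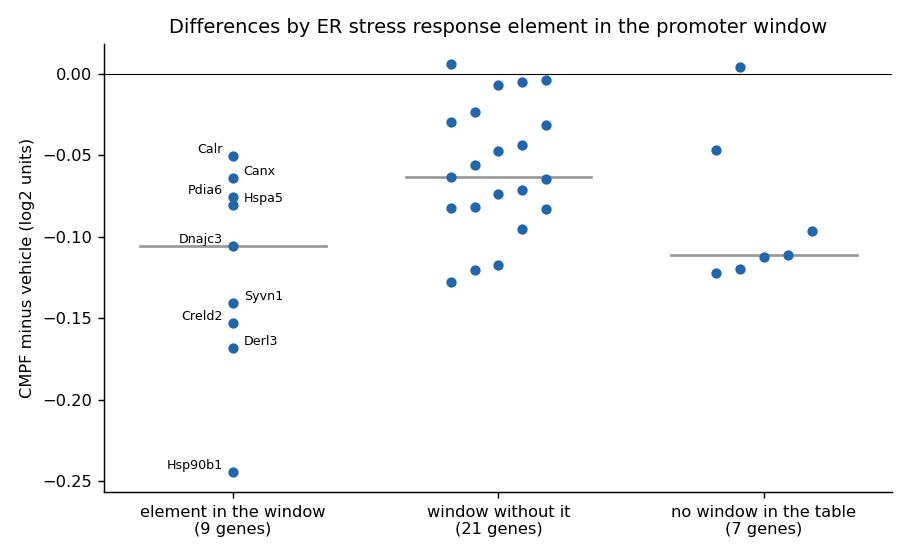
Difference of each ER gene (y axis, CMPF minus vehicle, log2 units) by whether its promoter window holds the ER stress response element (x axis); points are genes and grey lines medians. The 9 genes with the element span -0.24 to -0.050 and overlap the 21 genes without it.

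Other ER genes of the same pathway, 81 of them measured, were taken from lists fixed by function. Of these 61 (75.3%) were negative and 20 positive, beside 49.3% of all genes and 68.7% of the 1820 bright genes negative. In all 3 pairs 25 were lower and 4 higher. The shares were 11.1% and 11.8% over all genes and 22.1% and 7.03% over the bright genes. The median of the 81 was -0.042, beside 0.0018 over all genes and -0.033 over the bright genes. The part of brightness was not tested. None was called by limma. Of the 15 glycosylation genes 14 were negative, with a median of -0.060. The 14 further translocation genes had a median of -0.062 with 12 negative, the 20 folding and redox genes -0.044 with 16 negative, and the 18 degradation genes -0.035 with 12 negative. The 14 further sensors and regulators, among them PERK and its targets, were evenly divided with 7 negative and a median of -0.0012.

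Sec11c, a catalytic subunit of signal peptidase, read 12.03, 12.09 and 12.02 with vehicle and 11.74, 11.70 and 11.95 with CMPF. The groups did not overlap, and the difference was -0.25 (SE 0.097), with an unadjusted limma p of 0.035 that did not survive adjustment (0.99995). Srp9, of the signal recognition particle, differed by -0.17 (SE 0.094). Stt3a, a catalytic subunit of the oligosaccharyltransferase, differed by -0.15 (SE 0.106). Tusc3, an oxidoreductase subunit of the STT3B form of that enzyme, differed by -0.12 (SE 0.086). Fkbp2, an ER prolyl isomerase, differed by -0.14 (SE 0.089) and Dnajc1 by -0.10 (SE 0.082). All 6 were lower in every pair. Edem3, a mannosidase of the degradation pathway, was lower by 0.21 and 0.20 in pairs 1 and 2 and by 0.0014 in pair 3, for a difference of -0.14 (SE 0.093). Ubxn8, which brings the p97 ATPase to the ER membrane, differed by -0.14 (SE 0.126), Atf6b by -0.13 (SE 0.086) and Rtcb, the ligase that joins the Xbp1 exons, by 0.070 (SE 0.121).

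The 37 genes also differed together between arrays of 1 group. The median deviation of the 37 genes from their own 6-array means was 0.095, -0.067 and 0.082 log2 units on vehicle 1, 2 and 3, and 0.039, -0.10 and -0.034 on CMPF 1, 2 and 3. Vehicle 2 was thus below CMPF 1 and CMPF 3, and the groups overlapped. Number 2 was the lowest in each group for all roles but the sensors, where CMPF 3 was below CMPF 2. For all genes the same median stayed between -0.011 and 0.0092, and for the 1820 bright genes between -0.036 and 0.017. Leaving out 1 array moved the median difference of the 37 genes from -0.076 to values between -0.13 (without vehicle 2) and -0.034 (without CMPF 2), and the count of negative genes to between 28 (without vehicle 1) and 36 (without CMPF 1). The median was -0.11 without CMPF 1 and -0.042 without vehicle 1.

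**Figure D5:**
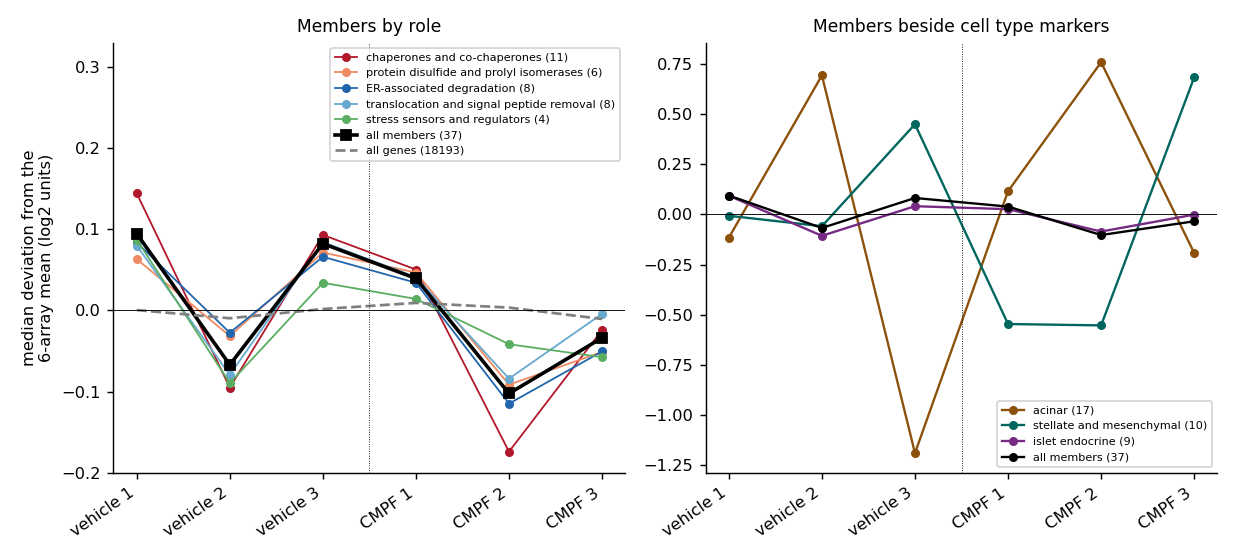
Median deviation of gene groups from their 6-array mean (y axis, log2 units) on each array (x axis), for the 37 ER genes by role (left) and beside cell type markers (right). The ER genes are low on vehicle 2 and CMPF 2, where acinar markers are high and islet endocrine markers are low.

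Markers of the cell types in the preparation were read on the same arrays. The defining hormone genes of islets were bright, with Ins2 at 14.61 to 14.73 and Gcg at 14.30 to 14.45 on the 6 arrays. The 9 measured endocrine markers deviated by 0.094, -0.11 and 0.041 with vehicle and 0.027, -0.085 and -0.00073 with CMPF, low on the arrays of number 2 as the ER genes were. Their median difference was -0.025. Acinar cells of the exocrine pancreas, which also hold much ER, were represented by 17 measured markers. Of these 16 were positive and 1 negative, beside 49.3% of all genes negative. In all 3 pairs 12 were higher and 1 lower, beside 11.8% and 11.1% of all genes. The median difference of the acinar markers was 0.43, and 0.27, 0.044 and 0.93 by pair. None was called by limma. With the replicate block 9 had an unadjusted limma p under 0.05 (higher), beside 2.52% of all genes. The mean log2 level of the acinar markers ran from 10.32 to 12.04 with vehicle and from 11.17 to 12.09 with CMPF. In each group it was highest on the array of number 2, where the ER genes were lowest. Stellate and mesenchymal markers (10 measured) ran from 9.04 to 9.47 with vehicle and from 8.58 to 9.73 with CMPF, with 9 of 10 negative and a median difference of -0.23. By pair it was -0.42, -0.51 and 0.26, so that none of the 10 kept 1 direction in all 3 pairs. The mean levels ran from 8.01 to 8.92 and 8.20 to 8.98 for 6 duct markers, from 5.84 to 6.26 and 5.80 to 6.47 for 10 endothelial markers, and from 6.12 to 6.29 and 6.04 to 6.32 for 10 macrophage markers. The part of these cells in the differences of the ER genes was not tested. In such whole-islet RNA, fewer cells of a type and less RNA per cell cannot be told apart.

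The other probe sets of the same genes gave a further reading of the same RNA. The 37 genes had 87 probe sets of their own, of which 69 (79.3%) had a negative difference, beside 49.3% of all such probe sets. Of the 26 genes with several, 15 were negative on each and 1, Atf6, positive on each, by 0.0040 to 0.093; the other 10 had both signs. Dnajc3 was negative on all 5 of its probe sets, from -0.23 to -0.11, Hyou1 on 3, from -0.29 to -0.097, and Hsp90b1 on 2, at -0.24 and -0.17. Hspa5 spread more, from -0.25 to 0.042 over 3 probe sets. Xbp1 had both signs over 4, from -0.056 to 0.14, and its second brightest was higher in all 3 pairs, by 0.18, 0.13 and 0.11. Derl1 and Pdia4 had separate groups on the brightest probe set. Derl1 was negative on 2 of its 4 probe sets and positive on the others, by 0.092 and 0.041. The one at 0.092 was higher in all 3 pairs, by 0.056, 0.20 and 0.017. Pdia4 was positive on its other probe set, by 0.085. That probe set was dim, at 3.97 to 4.39 and below the 25th percentile of level over genes (4.53). The 2 probe sets of Syvn1 were both negative, at -0.14 and -0.082.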

How the data were processed

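Per the submitters' processing notes, the authors made the deposited log2 values with RMA in Affymetrix Expression Console 1.1, which corrects background, equalises the arrays and summarises the probes of a set. RMA removes differences in total signal and compresses those of dim genes. Of 45101 probe sets, 64 controls were left out. By a platform annotation that names no genome build, 34945 had 1 gene, 932 several and 9160 none. A gene was read from its brightest probe set (mean of 6 arrays) among those naming no other gene, with no filter.

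CMPF was compared with vehicle by limma 3.58.1 in R 4.3.3 (lmFit and eBayes, both directions), with p-values adjusted by Benjamini-Hochberg across the 18193 genes at 0.05. Deviations from the group mean correlated at 0.488 to 0.638 for arrays of 1 number and at -0.555 to 0.0885 otherwise, so the numbers were taken, from the data, to pair the arrays. The fit was tested on simulated data. Given in full are Hspa5, Xbp1, Atf6, Ern1, Wfs1 and up to 3 genes of each role with the smallest p, and of the other pathway lists up to 2 each. The members and lists were chosen with earlier results of these data known. The number of arrays limits the precision.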

Additional observations from a re-analysis of the deposited data

How the results depend on the processing

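The count of genes called was 0, over all genes and among the 37, under every alternative run. These were the replicate block, each array or pair left out, centring on the median and quantile normalization of the deposited values. Means over a gene's probe sets, filters at the 25th percentile and the median, array weights and a variance trend were also run. A filter at the 90th percentile was added after seeing the data. A further alternative preferred probe sets with no suffix for shared or similar sequence. Genes with suffixed sets only, Hspa5, Hsp90b1, Derl3 and Ssr2 among them, kept the same probe set there, so their differences did not change. With the replicate block the median difference of the 37 genes was -0.076, as without it, and no call changed. The median moved by more than the spread of the pair medians with array weights, to -0.11, and when single arrays were left out, to between -0.13 and -0.034; it was negative throughout. Between 28 and 36 of the 37 genes were negative under the alternatives other than the filter at the 90th percentile, which kept 32 genes, all negative. Of the 17 genes given in full, 5 turned sign under at least 1 alternative: Xbp1, Atf6, Ern1, Pdia4 and Derl1. The median of the sensors was 0.014 with probe set means. The cause was not tested.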

Other observations

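Plasma cells, which also hold much ER, were read through 9 measured lymphocyte and plasma cell markers, whose mean level ran from 4.27 to 4.60 log2 units with vehicle and from 4.20 to 4.34 with CMPF. Jchain, the joining chain of secreted antibodies, read 3.42, 6.35 and 3.34 with vehicle and 3.14, 3.17 and 3.33 with CMPF, so that vehicle 2 alone was high. Mzb1, an ER cofactor of antibody folding, was also highest on vehicle 2, at 5.94 against 5.20 to 5.65 on the other arrays. Both were chosen from the list after their values were seen. The mean level of the 9 markers was also highest on vehicle 2, at 4.60. By the median deviation the list was not high there. The median deviation of the 9 markers from their 6-array means was -0.024, -0.055 and -0.039 on vehicle 1, 2 and 3. On vehicle 2 the median deviation of the 37 ER genes was -0.067, but single genes differed. Xbp1 (12.91) and Ppib (11.67) read higher there than on any other array. Txndc5 read 9.94 there against 10.01 on vehicle 1 and 9.84 on vehicle 3. The part of plasma cells in these values was not tested.

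Erp27, an ER protein of the disulfide isomerase family, had the highest difference of the 81 other ER genes, 0.45 log2 units (SE 0.762). It read 6.61, 8.25 and 5.31 with vehicle and 6.97, 8.24 and 6.29 with CMPF, highest on the arrays of number 2, where the acinar markers were also highest in each group. By pair the difference was 0.36, -0.0047 and 0.98. It was chosen after its values were seen, and it was not called by limma (adjusted p = 0.99995, or 0.979 with the replicate block).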
